A study of Oryza sativa with 12 samples.

Results

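Tonoplast intrinsic proteins (TIPs) are the aquaporins of the vacuolar membrane. The 5 rice TIP genes described here were chosen by locus ID among the 36844 features of the count table, namely TIP1;1 (Os03g0146100), TIP1;2 (Os01g0975900), TIP2;1 (Os02g0658100), TIP2;2 (Os06g0336200) and TIP4;1 (Os05g0231700). Aquaporins form pores through which water, and in some members small neutral solutes, cross a membrane along their gradient. In plant cells the vacuole takes up most of the volume and is the compartment where sodium can be stored away from the cytosol, so that TIPs act where water moves between cytosol and vacuole. The locus IDs place the genes on Chromosomes 3, 1, 2, 6 and 5, in the order given above.

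Leaf RNA came from a single rice introgression line, IL22, and from a line labelled PL12 in the sample records. PL12 is taken here to be OLESA, the *japonica* parent of IL22, because the study describes no other parent for this experiment, and the records themselves do not state it. IL22 has *indica* segments from the donor FL478 in an OLESA background. The donor tolerates salt and the parent is sensitive to it. Plants of both lines grew in hydroponics, either without added NaCl (control) or with 80 mM NaCl for 24 h (salt). Each of the 4 groups had 3 replicates, and each replicate pooled leaves of 4 plants, which gave 12 libraries. The comparisons asked which TIP genes responded to salt in each line, which differed between the lines in each condition, and whether the salt response itself differed between the lines.

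Total counts ranged from 11505396 to 23578477 per library, and the 5 TIP genes together had 12233 to 26753 of them. Levels are given as CPM (counts per 1000000 counts) after TMM scaling. They compare a gene across libraries and not 1 gene with another, as no gene length was used. Fragments were counted on *japonica* gene models, and the study lists TIP1;1 among the genes of the introgressed *indica* segment of Chromosome 3, so that its counts in IL22 come from an *indica* allele. IL22 control replicate 1 stood apart within its group. Across all tested features its log2 CPM correlated at r = 0.942 and r = 0.937 with replicates 2 and 3, which correlated at r = 0.966 with each other. Each TIP call that changed without this library is given with and without it. In whole leaves, fewer cells of a type and less RNA per cell cannot be told apart.

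In each line, 1 TIP gene changed in salt past the test. TIP4;1 rose 3.60-fold in IL22, whereas the only called change in OLESA was a 2.37-fold fall of TIP2;2. Calls required an adjusted p no higher than 0.05 in edgeR's quasi-likelihood test across all features, together with a rise or fall of more than 0.5 in log2 fold change (FC). Of the 5 members, 4 passed the filter on low counts and were tested, each with at least 381 counts in every library. In OLESA, 1 of the 4 was called lower in salt and 0 higher, where 21.6% of the 20760 tested features were called (9.89% called lower). In IL22, 1 of 4 was called higher and 0 lower, where 5.17% of all tested features were called (2.92% called higher). IL22 against OLESA gave 0 calls among the 4 in control (1.38% of all tested features called) and 1 higher in IL22 under salt (2.85% of all, 1.2% higher). The difference between the lines in their salt response was called for 1 of 4, with the more positive response in IL22 (4.99% of all, 1.43% in this direction). With the unadjusted p in place of the adjusted one, 2 of 4 passed for salt in OLESA (32.9% of all tested features), 2 for salt in IL22 (18% of all), 1 between the lines in control (15.6%), 1 between the lines in salt (17.3%) and 2 for the difference in response (24.3%). The number of all features called, against which the TIP counts are set, moved by more than 1.5 times with single libraries. For salt in OLESA it was 4487 with all libraries and ran from 1936 when OLESA control replicate 2 was left out to 5841 when IL22 control replicate 1 was. It also moved that far without OLESA control replicate 3 (2303) and OLESA salt replicates 1 (2978) and 2 (2711). For salt in IL22 it was 1074, rose to 3125 without IL22 control replicate 1, and lay between 348 and 606 without any 1 of the other 5 IL22 libraries, lowest without IL22 salt replicate 1. Between the lines in control it was 286, with 4000 without IL22 control replicate 1 and 158 to 185 without IL22 control replicates 2 or 3 or OLESA control replicates 2 or 3. Between the lines in salt it was 592, and leaving out IL22 control replicate 1 gave 1790, OLESA control replicate 2 gave 378 and OLESA salt replicate 2 gave 305, with 190 to 248 without any 1 of the IL22 salt replicates. For the difference in response it was 1036, with 4949 without IL22 control replicate 1 and 19 to 57 without any 1 of the other libraries, except OLESA control replicate 1 and OLESA salt replicate 3. The shares of all features thus carry this uncertainty. The median log2 FC of the 4 genes was -0.16 for salt in OLESA and -0.17 for salt in IL22, beside 0.01 and -0.03 over all tested features.

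**Figure D1:**
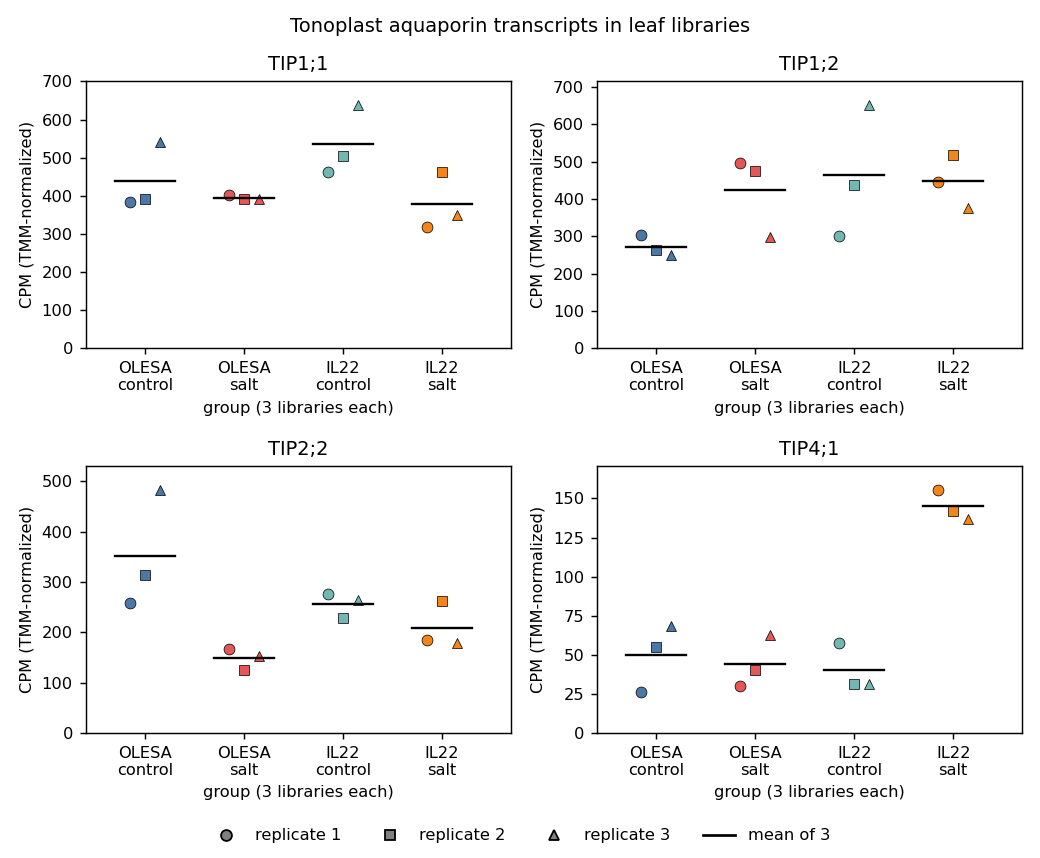
CPM (TMM-normalized, linear axes from 0) of the 4 tested TIP genes in each of the 12 libraries, with the group on the x axis, 1 symbol per replicate and a line at the mean of 3. The salt-treated IL22 libraries stand at 137 to 155.5 CPM for TIP4;1, above the other 9 libraries, and the salt-treated OLESA libraries are the lowest for TIP2;2.

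TIP4;1 is the single TIP4 gene among the members, and its *Arabidopsis* counterpart is known to conduct urea as well as water. In IL22 it was measured at 57.7, 31.4 and 31.3 CPM in control replicates 1, 2 and 3, and at 155.5, 142.2 and 137 CPM in salt replicates 1, 2 and 3. In OLESA it was at 26.0, 55.3 and 68.5 CPM in control and at 30.0, 40.03 and 62.6 CPM in salt, in the same order of replicates. Every salt-treated IL22 library lay above each of the other 9 libraries, and the 3 other groups overlapped one another. Group means ran from 144.9 ± 9.59 CPM (SD, n = 3) in IL22 salt through 49.9 ± 21.8 in untreated OLESA and 44.2 ± 16.7 in salt-treated OLESA to 40.1 ± 15.2 in IL22 control, and neighbours among the last 3 did not differ beyond their spread.

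In IL22 the log2 FC of the TIP4 gene for salt against control was 1.85 (SE 0.36, 95% interval 1.08 to 2.62, adjusted p = 0.0109 by edgeR). This size of change exceeded that of 96.8% of all tested features. In OLESA the log2 FC was -0.17 (SE 0.35, 95% interval -0.92 to 0.57, adjusted p = 0.744 from the same edgeR test). The difference between these responses was tested directly and reached 2.02 on the log2 scale (SE 0.49, 95% interval 0.96 to 3.09, adjusted p = 0.04 from the same edgeR test). Under salt, IL22 exceeded OLESA by 1.71 (SE 0.35, adjusted p = 0.0222 from edgeR), a 3.27-fold higher level. That contrast shares the IL22 salt libraries with the salt response of IL22, so the values are not independent. Under control conditions the estimate was -0.31 (SE 0.35, adjusted p = 0.651 from edgeR). Groups of 3 that do not overlap, higher in salt, were found for 14.2% of all tested features in IL22, and higher in IL22 under salt for 15.3%.

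The rise of this gene in IL22 kept its direction in all 12 fits that left out a library, with a log2 FC of 1.70 to 2.21, but its call was lost without IL22 control replicate 2 (adjusted p = 0.0602 from edgeR) and without IL22 control replicate 3 (adjusted p = 0.0514 from edgeR). Without IL22 control replicate 1, which held the highest control value of that line, the log2 FC was 2.21 (adjusted p = 0.00414 from edgeR). The call of the difference between the lines was kept in 3 of the 12 such fits, namely without OLESA control replicate 1, IL22 control replicate 1 or OLESA salt replicate 3. In the other 9 its adjusted p in edgeR ran up to 0.112, while the difference stayed between 1.74 and 2.06 on the log2 scale. The higher level in IL22 under salt kept its call in 7 of 12 fits and lost it without OLESA salt replicates 1 or 2 and without each of the IL22 salt replicates, with an adjusted p of up to 0.0962 from edgeR.

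**Figure D2:**
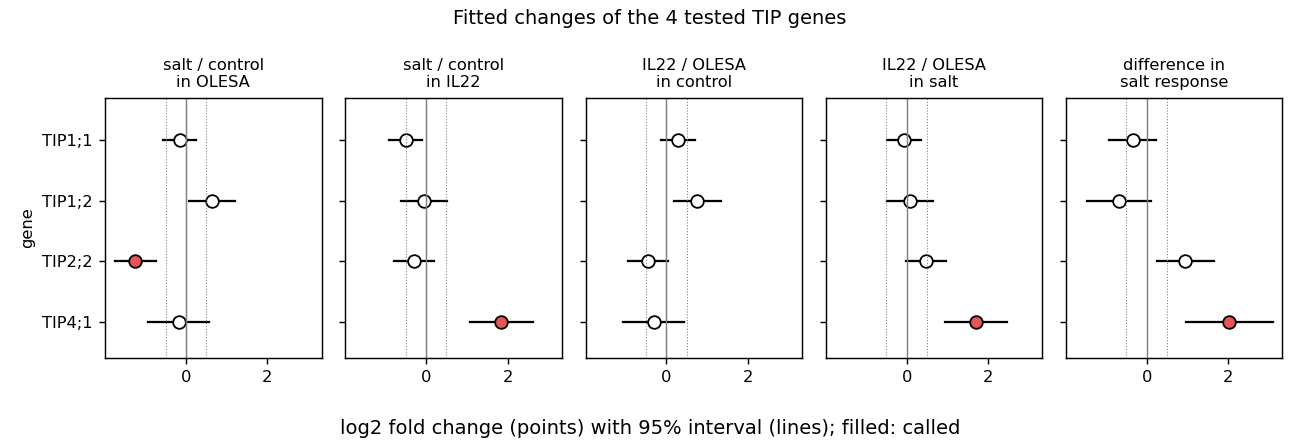
Log2 FC (x axis, points) with its 95% interval (lines) for the 4 tested TIP genes in the 5 comparisons, fitted on all 12 libraries, with dotted lines at a log2 FC of 0.5 in either direction. Filled points mark the 4 calls, 1 for the second TIP2 gene (-1.24 for salt in OLESA) and 3 for the TIP4 gene (1.85, 1.71 and 2.02).

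TIP2;2 belongs to the TIP2 subgroup, which in *Arabidopsis* includes members that conduct ammonia. In OLESA it fell in salt, from 259.3, 313.8 and 483.3 CPM in control replicates 1, 2 and 3 to 167.9, 125.7 and 152.5 CPM in the salt replicates. These OLESA groups did not overlap. In IL22 it was at 276.3, 228 and 263.6 CPM in control and at 185.2, 262.2 and 178.4 CPM in salt, and those groups overlapped through IL22 salt replicate 2. Means descended from 352.1 ± 116.8 CPM (SD, n = 3) in OLESA control to 256 ± 25.0 in IL22 control, 208.6 ± 46.6 in IL22 salt and 148.7 ± 21.3 in OLESA salt. Neighbouring groups in this order overlapped, except for the last pair.

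For this TIP2 gene the log2 FC for salt was -1.24 in OLESA (SE 0.23, 95% interval -1.74 to -0.75, adjusted p = 0.00428 by edgeR), and -0.30 in IL22 (SE 0.23, 95% interval -0.79 to 0.20, adjusted p = 0.494 from the same test). Non-overlapping groups, lower in salt, made up 19.7% of all tested features in OLESA. The fall in OLESA was called in each of the 12 fits without 1 library, at a log2 FC of -1.43 to -0.96. It was smallest without OLESA control replicate 3, the library with the highest value. The difference between the lines in this response was 0.95 on the log2 scale (SE 0.32, 95% interval 0.25 to 1.64) and did not pass the adjustment over all features (adjusted p = 0.0962 from edgeR). Without IL22 control replicate 1 it was 1.01 and passed (adjusted p = 0.0485 from edgeR), and DESeq2 gave 0.97 with an adjusted p of 0.0447. Whether a different response of this gene was called thus depended on the libraries and the test. Between the lines, the log2 FC was -0.46 in control (SE 0.23, adjusted p = 0.299 from edgeR) and 0.49 in salt (SE 0.23, adjusted p = 0.247 from edgeR). The groups in salt did not overlap, which also held, higher in IL22, for 15.3% of all tested features.

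**Figure D3:**
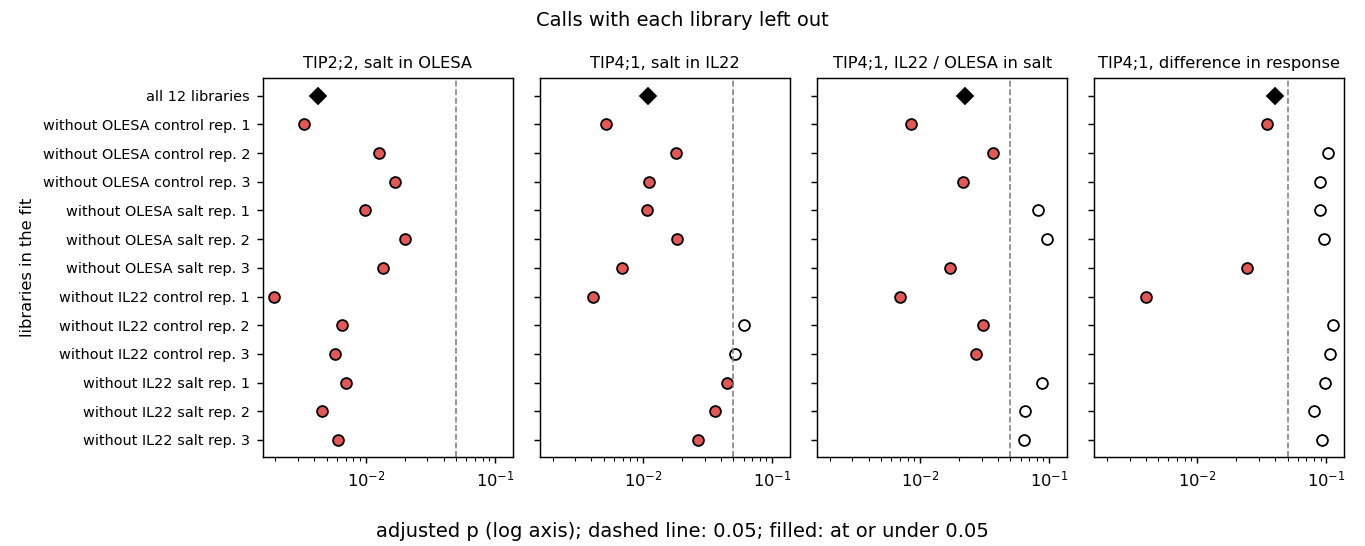
Adjusted p from edgeR (log axis) for the 4 calls, in the fit of all 12 libraries (diamonds) and with each library left out in turn (circles, filled at or under 0.05, with a dashed line at 0.05). The fall of the second TIP2 gene in OLESA stays at or under 0.02 throughout, whereas the difference in response of the TIP4 gene passes in 3 of 12 fits.

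The other TIP2 gene, TIP2;1, was close to undetected in these leaves. It had 1, 13 and 1 counts in OLESA control replicates 1, 2 and 3, 4, 0 and 3 in OLESA salt, 0 in every IL22 control library, and 7, 0 and 1 in IL22 salt. OLESA control replicate 2 alone held 13 of its 30 counts. A count of 0 allows up to 0.253 CPM, from 3 counts in OLESA salt replicate 2, the shallowest library without a count of this gene, which covers counting error only. The gene did not pass the filter and was not tested with the others. In the fit without a filter (29907 features) its lowest adjusted p from edgeR over the 5 comparisons was 0.19, for IL22 against OLESA in control. No difference was detectable for it at this depth.

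TIP1;1 and TIP1;2 form the TIP1 subgroup. In *Arabidopsis*, TIP1 proteins are major aquaporins of vegetative vacuoles and also let hydrogen peroxide through. Neither of the 2 rice genes was called in any of the 5 comparisons. The first of them was at 383.8, 392 and 540.9 CPM in OLESA control, 401.2, 391.5 and 392.3 in OLESA salt, 463.7, 503.8 and 637.4 in IL22 control, and 318.7, 462.8 and 350.8 in IL22 salt (replicates 1, 2 and 3 in each group). The 3 salt-treated OLESA libraries lay close together and inside the range of OLESA control. In IL22, each salt library was below each control library, although the highest salt value (462.8 CPM) almost reached the lowest control value (463.7 CPM).

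The log2 FC of the first TIP1 gene for salt was -0.15 in OLESA (SE 0.19, 95% interval -0.56 to 0.26, adjusted p = 0.593 from edgeR) and -0.50 in IL22 (SE 0.19, 95% interval -0.91 to -0.09, adjusted p = 0.149 from edgeR, unadjusted p = 0.0199). Non-overlapping groups, lower in salt, occurred in 12.2% of all tested features in IL22. The difference in response was -0.35 (SE 0.27, adjusted p = 0.437 from edgeR). Between the lines, this gene of the *indica* segment of Chromosome 3 was not called in either condition. IL22 against OLESA gave 0.29 in control (95% interval -0.12 to 0.69, adjusted p = 0.433 from edgeR) and -0.07 in salt (95% interval -0.47 to 0.34, adjusted p = 0.875 from edgeR). How well *indica* fragments align to the *japonica* model of this gene was not tested.

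The second TIP1 gene was at 302.4, 264.5 and 250.6 CPM in OLESA control and at 496.4, 473.6 and 297.9 in OLESA salt, where replicate 3 stayed within the range of the controls. In IL22 it was at 300.7, 437.7 and 650.5 CPM in control and 445.7, 518.8 and 376.3 in salt. IL22 control replicate 1 was the lowest of the IL22 libraries and lay within the range of OLESA control. Means were 272.5 ± 26.8 CPM (SD, n = 3) in OLESA control, 422.6 ± 108.6 in OLESA salt, 446.9 ± 71.2 in IL22 salt and 463 ± 176.3 in IL22 control, and the last 3 overlapped one another.

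For this gene the log2 FC for salt was 0.63 in OLESA (SE 0.26, 95% interval 0.07 to 1.20, adjusted p = 0.0972 from edgeR, unadjusted p = 0.0311) and -0.05 in IL22 (SE 0.26, 95% interval -0.61 to 0.51, adjusted p = 0.937 from edgeR). The value in OLESA passed without OLESA salt replicate 3 (0.82, adjusted p = 0.0489 from edgeR) and without IL22 control replicate 1 (0.63, adjusted p = 0.0412 from edgeR). In control plants the log2 FC of IL22 against OLESA was 0.76 (SE 0.26, adjusted p = 0.159 from edgeR, unadjusted p = 0.0121), and without IL22 control replicate 1 it was 1.00 and passed (adjusted p = 0.0119 from edgeR). That fit called 4000 of all features against 286 with all libraries. Without IL22 control replicate 3, which held the highest value of this gene, the log2 FC was 0.44 (adjusted p = 0.554 from edgeR). Under salt the lines differed by 0.08 (95% interval -0.48 to 0.64, adjusted p = 0.891 from edgeR), and the difference in response was -0.68 (SE 0.37, adjusted p = 0.268 from edgeR).

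**Figure D4:**
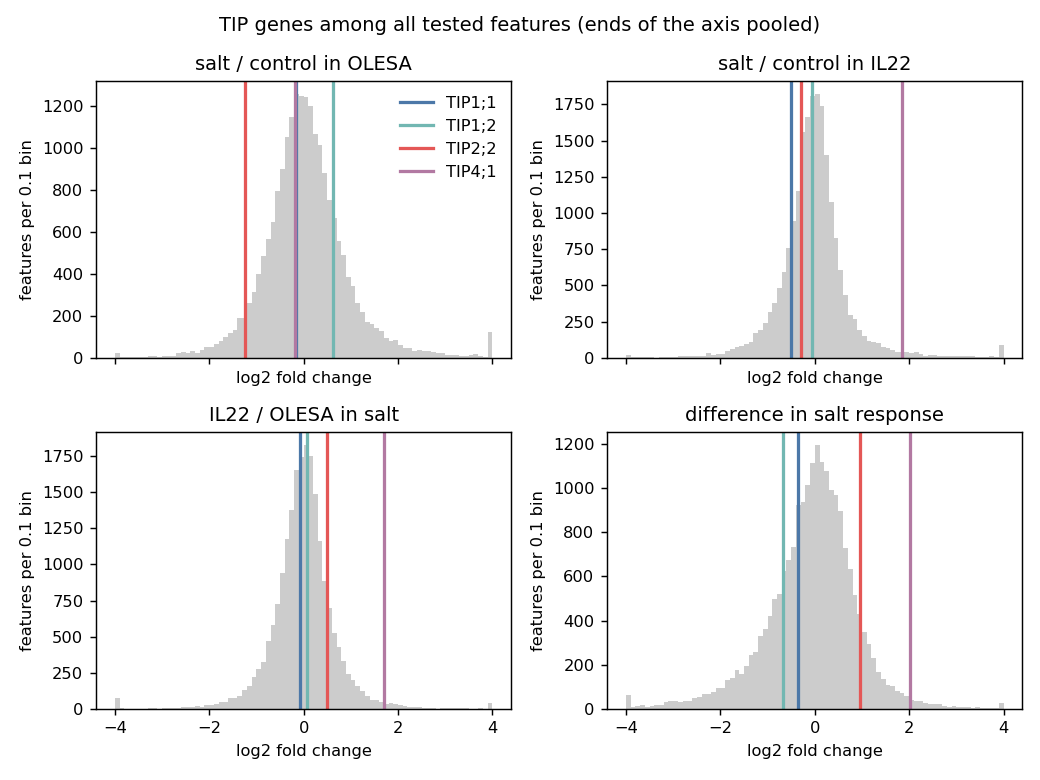
Number of tested features (y axis) by log2 FC in bins of 0.1 (x axis, with values beyond the ends pooled in the outermost bins) for 4 of the comparisons, with a coloured line at each of the 4 tested TIP genes. The TIP4 line lies in the right tail in 3 panels, at 1.85 for salt in IL22, 1.71 between the lines in salt and 2.02 for the difference in response, but near 0 for salt in OLESA (-0.17).

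The summed TIP level is given as a description and was not tested. For the 5 genes together it was 1114 ± 200.7 CPM (SD, n = 3) in OLESA control, 1011 ± 96.7 in OLESA salt, 1294 ± 255.4 in IL22 control and 1178 ± 182.8 in IL22 salt, and the ranges overlapped in each pair of groups except OLESA salt (highest 1096) and IL22 control (lowest 1098). The shares of some genes in that sum shifted, and as shares of a sum they are not independent. The share of the first TIP1 gene averaged 39.3% in OLESA control and 39.3% in OLESA salt. In IL22 it averaged 41.5% in control and 32.0% in salt. The TIP4 gene gave 10.3% to 14.1% of TIP fragments in the salt-treated IL22 libraries and 1.98% to 6.91% in the other 9. The second TIP2 gene gave 26.7% to 36.0% in untreated and 12.2% to 16.8% in salt-treated OLESA, 16.7% to 25.2% in untreated IL22 and 16.8% to 18.9% in salt-treated IL22. These shares are of fragments and not of molecules, since the genes may differ in length.

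Ratios of 2 genes within a library do not depend on its scaling. The ratio of TIP4;1 to TIP2;2 counts was 0.84, 0.542 and 0.768 in IL22 salt replicates 1, 2 and 3, and 0.209, 0.138 and 0.119 in IL22 control. In OLESA it was 0.179, 0.318 and 0.41 in salt and 0.1, 0.176 and 0.142 in control. Salt libraries exceeded control libraries in both lines, although in OLESA the lowest salt value (0.179) was barely above the highest control value (0.176). In IL22 the ratio moved with the TIP4 gene, and in OLESA with the TIP2 gene. The ratio of TIP1;2 to TIP1;1 counts was 1.40, 1.12 and 1.07 in IL22 salt against 0.648, 0.869 and 1.02 in IL22 control. These groups did not overlap, but the lowest salt value (1.07) was close to the highest control value (1.02). Neither TIP1 gene was called for salt in IL22. In OLESA this ratio was 1.24, 1.21 and 0.76 in salt against 0.788, 0.675 and 0.463 in control, where replicate 3 of the salt group fell within the control range. The ratios were chosen after the values were seen and are given as a description. How often ratios of other gene pairs separate the groups was not computed.

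**Figure D5:**
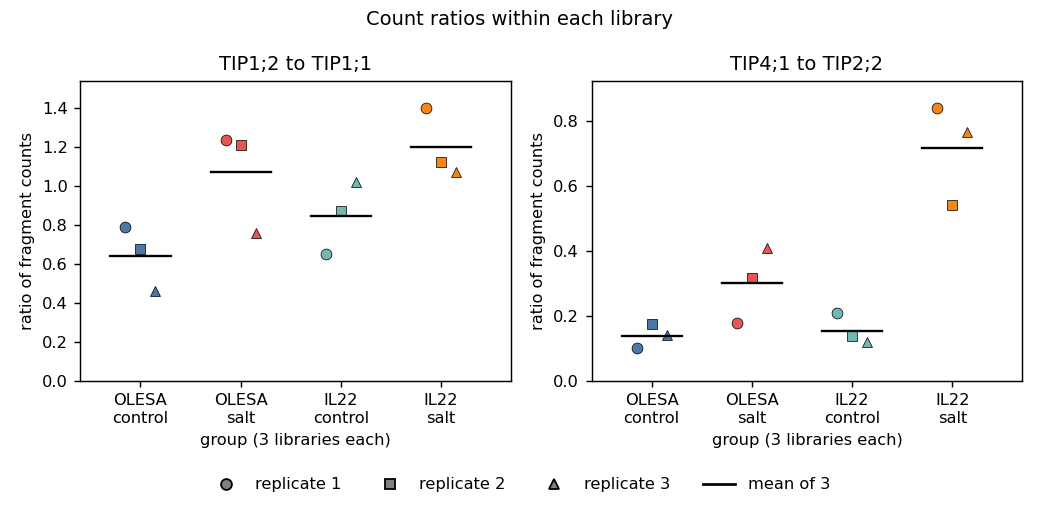
Ratio of fragment counts of 2 TIP genes within each of the 12 libraries (y axes from 0), with the group on the x axis, 1 symbol per replicate and a line at the mean of 3. The TIP4 to TIP2 ratio is highest in the 3 salt-treated IL22 libraries (0.542 to 0.84), and the ratio within TIP1 is higher in the salt than in the control mean of both lines.

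The 4 tested genes did not vary as a unit. Over the 12 libraries, the log2 CPM of pairs correlated at Pearson's r from -0.43, for the second TIP1 gene with the tested TIP2 gene, to 0.56, for the first TIP1 gene with the same TIP2 gene. Within groups, after each group mean was removed, that second pair had r = 0.74, and the TIP4 gene and the second TIP1 gene had r = -0.70. These correlations describe libraries of 4 groups that share their treatment and scaling. Among the other 20756 tested features, the log2 CPM profile most like that of a TIP gene was Os10g0445400 with TIP4;1 (r = 0.96 over 12 libraries), followed by Os10g0500300 with the same gene (r = 0.956). Os10g0445400 averaged 68 ± 4.58 CPM (SD, n = 3) in IL22 salt and between 26.5 and 36.2 CPM in the 3 other groups. Os10g0500300 averaged 15.1 ± 0.699 CPM in IL22 salt and between 6.43 and 8.26 CPM in the others. The sources used here pair neither ID with a gene name, and 17 features in all had an r above 0.9 with the TIP4 gene. An r above 0.9 was also reached by 34 features with TIP2;2, 17 with TIP1;2 and 7 with TIP1;1.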

How the data were processed

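Per the labels and the supplementary methods, the authors used bcl2fastq 2.20, cutadapt 1.11 and BBDuk on reads of stranded libraries, STAR 2.5.2b for alignment to the *japonica* genome IRGSP-1.0 (Ensembl release 42) and featureCounts 1.5.1 for counting. The supplementary methods also describe alignment of every sample to an *indica* reference genome. The counts used here are those on *japonica* gene models. The deposited file holds unnormalized counts of fragments per gene and library. How fragments with several matches were treated is not stated there, so that similar members such as the TIP1 pair may share reads.

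The software was R 4.3.3 with edgeR 4.0.16, applied to all 36844 features. filterByExpr (minimum count 10, minimum total 15) kept 20760 features. TMM factors, dispersions and a quasi-likelihood fit with 1 mean per group were computed over the 12 libraries, with Benjamini-Hochberg adjustment over all tested features. The FPKM criterion of the study's methods was not applied. SEs came from the F statistic. The edgeR steps were also run on simulated counts. These covered the comparisons between groups but not the difference in response, and held no deviating library. Correlations used log2 CPM with a prior count of 2. P-values measure the spread between replicates, which the study describes as separate sets of plants. No pair of libraries held identical values.

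The 5 members and the lists were chosen with earlier results of these data known. All 5 members are named, and of other features the 2 with the highest r to any member. Lists of other aquaporins and of leaf and root markers were not used, because no source at hand pairs those IDs with names, so the tissue was not checked against markers. RefSeq (ASM3414082v1, another build) lists each of the 5 names on the chromosome that its ID gives. Alternatives were RLE and upper-quartile factors, no filter, DESeq2 1.42.0, fits of the 2 groups compared, the replicate number as a block, and leaving out each library.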

Additional observations from a re-analysis of the deposited data

Results flagged for a closer look

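The response of TIP4;1 to salt differed between the lines by 2.02 on the log2 scale in a direct test (SE 0.49, adjusted p = 0.04 by edgeR, n = 3 libraries per group). All 3 salt-treated IL22 libraries were above all 3 IL22 controls, as for 14.2% of all tested features, while the OLESA groups overlapped. Over the alternatives that did not leave out a library, the adjusted p ran from 0.00236 with DESeq2 to 0.0786 with the replicate block in edgeR. In the edgeR fits without 1 library it ran from 0.00402 to 0.112, and 3 of these 12 fits kept the call. Other members' differences in response did not pass in the main edgeR fit of all libraries, whereas DESeq2 also called that of TIP2;2 (adjusted p = 0.0447).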

How the results depend on the processing

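The fall of TIP2;2 in OLESA was called in every setting tried, and the rise of TIP4;1 in IL22, and its higher level in IL22 under salt, in every setting that kept all libraries of the compared groups. With 1 library left out, the number of TIP genes called ran from 1 to 2 for salt in OLESA, from 0 to 1 for salt in IL22, from 0 to 1 for the lines in control, from 0 to 1 for the lines in salt and from 0 to 2 for the difference in response. For that difference, DESeq2 called 2 genes and the replicate block 0 (adjusted p = 0.0786 for the TIP4 gene from edgeR). Same-numbered replicates are not described as paired by the study. Their deviations from the group means correlated at -0.326 to 0.2 over 18 pairs, with 4 pairs above 0.1. Those of differently numbered replicates correlated at -0.26 to 0.399. With 3 libraries per group, these values cannot settle whether replicates of the same number shared a tank or batch. The replicate block changed no other call. All features called for the difference in response numbered 1036 with all libraries, 23 with the block, 2507 with DESeq2, and 19 to 4949 without 1 library. Only estimates that were not called changed sign. With upper-quartile factors the first TIP1 gene gave 0.008 for the lines in salt, and with 1 library left out it ran from -0.25 to 0.041 there and from -0.244 to 0.01 for salt in OLESA. The second TIP1 gene ran from -0.283 to 0.275 for salt in IL22 and from -0.116 to 0.204 for the lines in salt, and the TIP4 gene from -0.52 to 0.104 for salt in OLESA. Depth limits only TIP2;1, with 30 counts in all. The interaction could not be fitted on 2 groups.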
